A study of Homo sapiens with 12 samples.

Results

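The NADPH oxidase of phagocytes was followed in HL-60 cells, an established human acute myeloid leukaemia line of myeloid type, through 7 genes of the 58233 in the expression table. The 7 genes were taken by their symbols. CYBB, CYBA, NCF1 and NCF4 encode subunits of the enzyme, RAC1 and RAC2 encode the small GTPases that bind it, and VAV1 encodes an exchange factor that loads Rac with GTP. The cells, of wild-type genotype and grown in RPMI with 10% serum, were left untreated or received 100 nM all-trans retinoic acid (ATRA, a ligand of the retinoic acid receptors), 500 nM palbociclib (which inhibits the cell cycle kinases CDK4 and CDK6) or both for 3 h. Each of the 4 conditions had 3 poly(A) RNA libraries, 12 in all. Untreated cells were the only controls, and the sources used here name no vehicle for them. All libraries came from 1 cell line, and the labels do not say whether the 3 libraries of a group were separate cultures. The study calls them triplicates and describes its data in general as coming from independent experiments, unless specified otherwise, without saying more of these libraries. The p-values thus measure the spread between these libraries, which may be in part technical.

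The oxidase moves electrons from NADPH inside the cell across a membrane to oxygen and so makes superoxide, the first product of the respiratory burst of neutrophils and macrophages. Its membrane core, flavocytochrome b558, is a pair of the catalytic subunit gp91phox (CYBB) and p22phox (CYBA). At rest the organiser p47phox (NCF1) and p40phox (NCF4) stay in the cytosol, and upon stimulation they join the membrane core together with GTP-bound Rac. Loss of single subunits causes chronic granulomatous disease, and superoxide production, read as reduction of nitroblue tetrazolium, is a classical measure of HL-60 differentiation.

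All 7 genes were measured above the low-value filter (at least 5 RPKM, reads scaled to gene length and library size, in at least 3 libraries), which 7820 genes passed. NCF1 passed it only through the ATRA and combination libraries, so that it had to differ between groups in order to be tested. In GENCODE v44 on GRCh38, CYBB (ENSG00000165168) lies at chrX:37780018-37813461 on the plus strand, CYBA (ENSG00000051523) at chr16:88643275-88651083 on the minus strand and NCF1 (ENSG00000158517) at chr7:74774011-74789315 on the plus strand. NCF4 (ENSG00000100365) lies at chr22:36860988-36878017 on the plus strand and RAC2 (ENSG00000128340) at chr22:37225270-37259594 on the minus strand. RAC1 (ENSG00000136238) lies at chr7:6374527-6403967 and VAV1 (ENSG00000141968) at chr19:6772708-6857366, both on the plus strand. All 7 are protein-coding genes.

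NCF1 has a pair of pseudogenes on the same chromosome, NCF1B (ENSG00000182487, chr7:73220646-73235787, plus strand) and NCF1C (ENSG00000165178, chr7:75156639-75172044, minus strand), and reads from the 3 loci can be hard to tell apart. The start of exon 2 is shown because it is where the functional gene and the copies are told apart: the capitals mark the leading GT pairs, of which the reference has 2 in NCF1 (chr7:74777267-74777347, plus strand, hg38) and 1 in NCF1B (chr7:73223878-73223956, plus strand) and NCF1C (chr7:75168632-75168710, minus strand), so that the exon is 81 bases long in NCF1 and 79 in each copy.
NCF1: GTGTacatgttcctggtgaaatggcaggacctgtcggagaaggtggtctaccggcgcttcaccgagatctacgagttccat
NCF1B: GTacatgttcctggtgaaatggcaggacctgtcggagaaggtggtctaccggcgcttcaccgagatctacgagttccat
NCF1C: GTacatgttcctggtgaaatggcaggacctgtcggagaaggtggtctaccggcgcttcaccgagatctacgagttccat
Outside such places the loci were largely identical in the reference. Of the 11 exons of NCF1, 5 were found whole in NCF1B and 4 in NCF1C. Of 810 windows of 50 bases in those exons, 70.9% occurred unchanged in NCF1B, 65.3% in NCF1C, 84.7% in at least 1 copy and 51.5% in both. The values of NCF1 given here are therefore uncertain as to the locus they come from.

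Upstream sequence is shown for the genes whose listed values were called higher with ATRA below (CYBB, NCF1 and VAV1). Beside them it is shown for CYBA, the partner of CYBB. RefSeq promoter windows (GRCh38.p14, 250 bases before to 50 after the start) were matched for 4 of the 7 genes, and only bases upstream of both the RefSeq and the GENCODE start are printed, 5′ to 3′ on the strand of the gene: chrX:37779809-37780017 (plus), chr16:88651084-88651303 (minus), chr7:74773761-74774010 (plus) and chr19:6772458-6772707 (plus). Capitals mark GAGGAA on either strand (TTCCTC when read on the other one), a core that the myeloid factor PU.1 can bind.
CYBB: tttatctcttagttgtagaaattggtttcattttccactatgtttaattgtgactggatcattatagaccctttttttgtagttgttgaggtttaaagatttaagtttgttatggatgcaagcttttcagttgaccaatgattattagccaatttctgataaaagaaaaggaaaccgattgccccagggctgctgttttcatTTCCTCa
CYBA: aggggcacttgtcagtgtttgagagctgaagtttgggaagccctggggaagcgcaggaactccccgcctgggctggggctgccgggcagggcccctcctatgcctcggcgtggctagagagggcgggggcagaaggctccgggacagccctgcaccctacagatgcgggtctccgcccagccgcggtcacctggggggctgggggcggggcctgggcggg
NCF1: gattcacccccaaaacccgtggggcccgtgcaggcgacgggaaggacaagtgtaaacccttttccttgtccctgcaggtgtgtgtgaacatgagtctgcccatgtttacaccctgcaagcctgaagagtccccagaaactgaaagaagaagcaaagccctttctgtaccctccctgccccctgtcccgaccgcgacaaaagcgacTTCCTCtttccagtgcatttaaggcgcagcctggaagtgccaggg
VAV1: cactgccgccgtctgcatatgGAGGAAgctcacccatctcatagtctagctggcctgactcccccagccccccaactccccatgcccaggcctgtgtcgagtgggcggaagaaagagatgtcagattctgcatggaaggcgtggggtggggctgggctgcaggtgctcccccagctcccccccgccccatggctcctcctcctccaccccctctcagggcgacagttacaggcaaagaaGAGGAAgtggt
The letters GAGGAA occurred at -48 from the RefSeq start of CYBB and at -45 in NCF1, both on the minus strand of the window, and at -229 and -11 in VAV1, on the plus strand. CYBA had none. Among all 35116 promoter windows 27.9% held these letters, so a match is common. The half-sites AGGTCA and GGTTCA, which retinoic acid receptors can bind, and the TATA-like TATAAA were found in none of the 4 windows on either strand, against 13.8%, 8.62% and 11.5% of all windows. CCAAT, searched on both strands, was found in CYBB alone of the 4 (34.6% of all windows). In NCF1, each of the 201 windows of 50 bases within the printed stretch occurred unchanged in or next to the gene body of both copies. Where the matches fell at the copies was not recorded. These matches describe letters in short windows and nothing else.

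The values of 1 library summed to between 358455 and 390247 RPKM (median 371782), a range of 8.87%. They give no read totals, so the depth of each library is unknown from the table. Of 7 promyelocyte-type markers all were in the table and their summed level was 1459 to 1961 RPKM in a library, led by MPO (1077 to 1579), while ELANE was listed at 0 in the untreated libraries and at 0 or 1 elsewhere. Markers of T, erythroid and epithelial cells were listed at 0 throughout. Of 3 B cell markers only CD79A reached 1, in libraries with ATRA, and of 3 endothelial markers only PECAM1 was above 0, at 2 or 3 without ATRA and 4 to 6 with it. Of 4 mature neutrophil markers LTF, MMP9 and CEACAM8 were at 0 and CXCR2 at 2 to 4, and of 3 monocyte markers CD14 and FCGR3A were at 0 and CSF1R at 0 or 1. In bulk RNA, fewer cells that express a gene and less RNA per cell cannot be told apart.

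In untreated cells the genes covered a wide range of levels per length. RAC2 (78 ± 8.72 RPKM, mean ± SD, n = 3) and RAC1 (71.7 ± 2.52) were highest, and their libraries overlapped. NCF4 followed at 51.3 ± 2.31 and CYBB at 26.7 ± 1.53, each separate from its neighbours. VAV1 (18.7 ± 0.577) and CYBA (17.7 ± 1.53) overlapped, and NCF1 was listed lowest of the 7 at 3.67 ± 0.577. Before treatment, the listed value of NCF1 was 0.0719 ± 0.0141 of that of its cytosolic partner NCF4 (ratio of RPKM values, n = 3). Reads that align equally well to several places were left out of the counts, and 84.7% of the NCF1 exon windows occurred unchanged in a copy. Whether and how far this lowered the listed values of NCF1 was not tested, and those low values are also rounded to whole numbers.

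**Figure D1:**
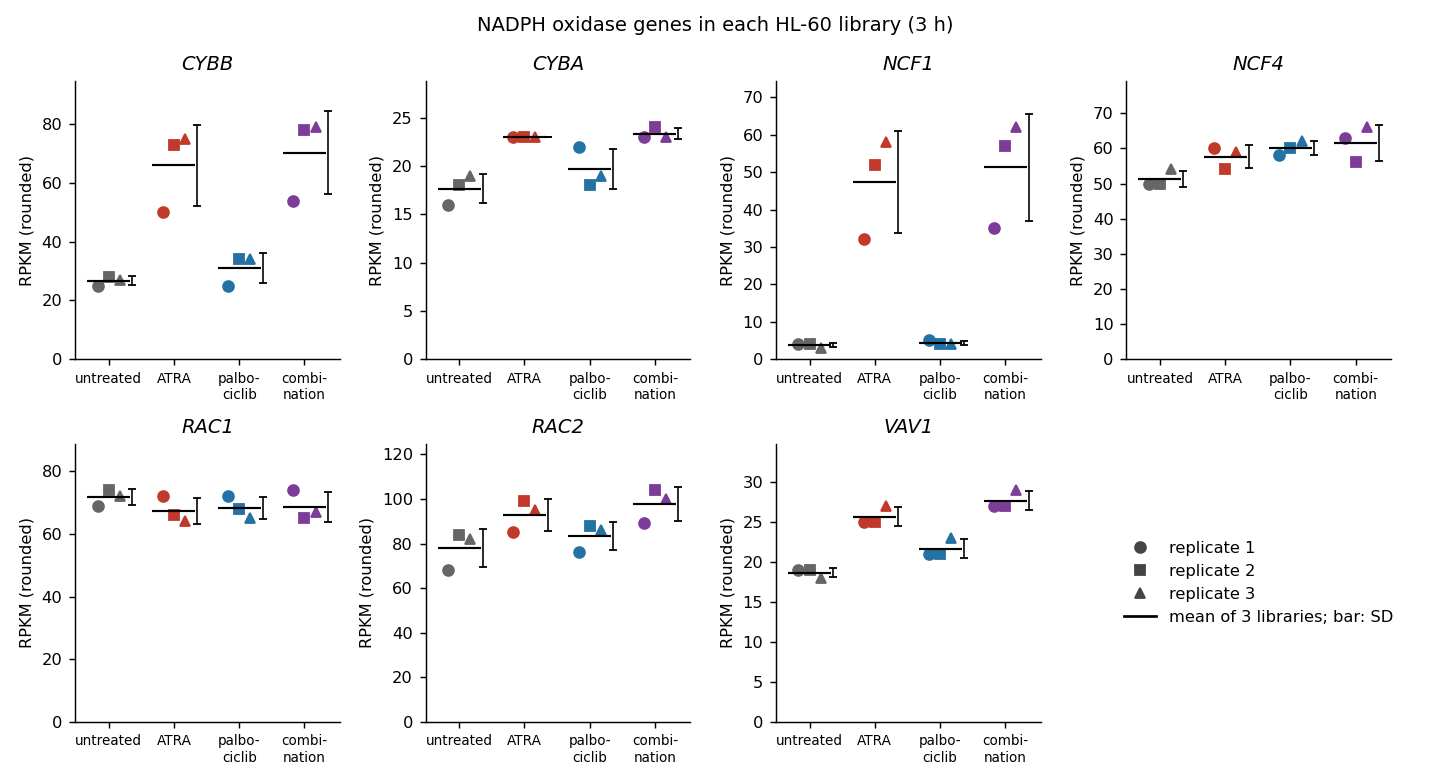
Level of each oxidase gene in each library, in RPKM rounded to whole numbers (vertical axes from 0), by treatment; symbols give the replicate number, the line is the mean and the bar the SD of 3 libraries. NCF1 moves from 3 to 5 RPKM without ATRA to between 32 and 62 with it, CYBB from 25 to 34 to between 50 and 79, and RAC1 stays between 64 and 74.

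The listed values of NCF1, CYBB and VAV1 were higher after 3 h with ATRA than in untreated cells. Those of NCF1 are uncertain as to the locus they come from. NCF1 was listed at 4, 4 and 3 RPKM in the untreated libraries and at 32, 52 and 58 with ATRA, a 12.9-fold difference of the means (11.2-fold to 15.1-fold from the rounding alone). CYBB was at 25, 28 and 27 in untreated cells and at 50, 73 and 75 with ATRA, 2.48-fold. For VAV1, values of 19, 19 and 18 compared with 25, 25 and 27, 1.38-fold. In all 3 genes every ATRA library lay above every untreated one. On the log2(RPKM + 0.1) scale the difference was 3.62 for NCF1 (SE 0.25, 95% interval 3.07 to 4.18, limma adjusted p = 5.01e-06), 1.28 for CYBB (SE 0.19, 0.86 to 1.70, adjusted p = 0.000832) and 0.46 for VAV1 (SE 0.06, 0.33 to 0.59, adjusted p = 0.000352). Calls were made at adjusted p-values under 0.001. These 3 of the 7 genes were called, all higher, where 2.77% of the 7820 genes tested were called higher. Of the 3, NCF1 passed the low-value filter only through the libraries with ATRA. The 7 genes were also chosen with earlier results of these data known, so the count is not independent of them.

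The other 4 genes moved less. CYBA, the partner of CYBB in the membrane, was at 16, 18 and 19 RPKM in untreated cells and at 23 in each ATRA library, a log2 difference of 0.38 (0.20 to 0.56) with an adjusted p of 0.00706. It was thus past 0.05 but not past 0.001, which brought the count at 0.05 to 4 of 7, against 8.71% of all genes higher. RAC2, the Rac of blood cells, was at 68, 84 and 82 RPKM and at 85, 99 and 95 with ATRA, a log2 difference of 0.26 (0.04 to 0.48, adjusted p = 0.0938). For NCF4 the values were 50, 50 and 54 and, with ATRA, 60, 54 and 59, which touch at 54 (0.17, 0.01 to 0.32, adjusted p = 0.123). RAC1, the Rac found in most cell types, was at 69, 74 and 72 RPKM and at 72, 66 and 64 with ATRA (-0.09, -0.24 to 0.06, adjusted p = 0.392). Its libraries overlapped. In 5 of the 7 genes (CYBB, CYBA, NCF1, RAC2 and VAV1) all ATRA libraries exceeded all untreated ones, which held for 12.4% of genes tested. NCF1, counted here and at 0.05, passed the low-value filter only through the libraries with ATRA. The median log2 difference was 0.38 over the 7 genes and -0.01 over all genes tested.

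Same-numbered libraries of the treated groups deviated together, and when the replicate number was added as a block RAC2 joined the called genes (limma adjusted p = 0.000524), for 4 of 7, where that fit called 4.81% of all genes higher. NCF1, among the 4, passed the low-value filter only through the libraries with ATRA. The call of CYBB was close to the threshold and was kept in 7 of 24 alternative settings (adjusted p 1.55e-05 to 0.0705), that of VAV1 in 13 (0.000194 to 0.0316) and that of NCF1 in 21 (1.08e-07 to 0.0120). The adjusted p of CYBB was over 0.001 without any 1 of untreated libraries 1, 2 or 3 (0.00634, 0.00434 and 0.00442), ATRA libraries 2 or 3 (0.00565 and 0.00559), palbociclib libraries 1, 2 or 3 (0.00105, 0.00190 and 0.00195) or combination libraries 2 or 3 (0.00162 and 0.00160). That of VAV1 was over 0.001 without any 1 of the untreated or ATRA libraries (0.00107 to 0.00237), and that of NCF1 stayed under it without any single library.

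**Figure D2:**
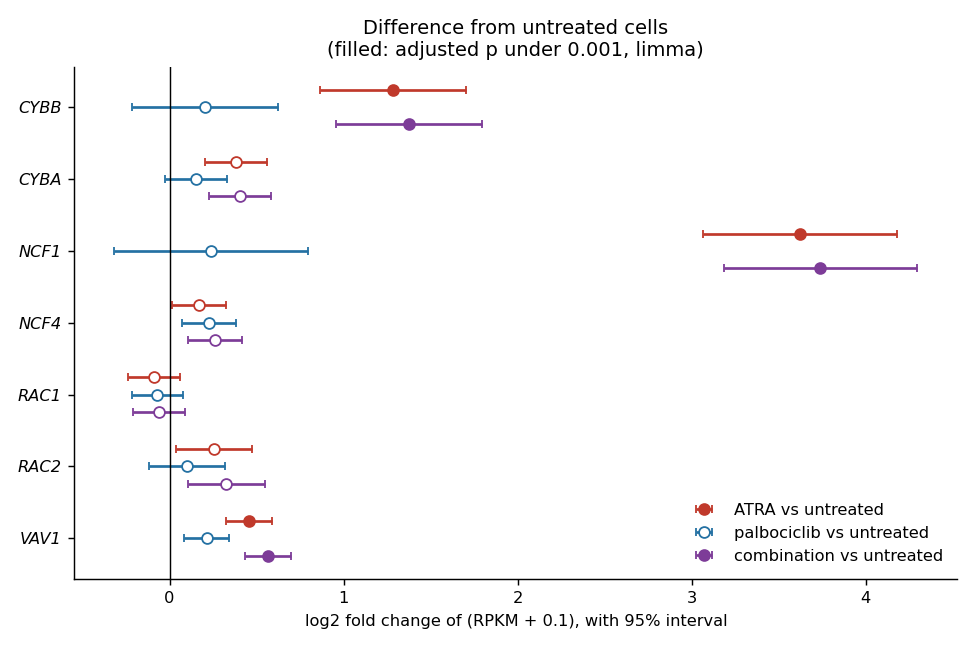
Difference from untreated cells for each oxidase gene, as the log2 fold change of (RPKM + 0.1) from limma with its 95% interval, for ATRA, palbociclib and the combination; filled points have an adjusted p under 0.001. NCF1, CYBB and VAV1 are filled for ATRA and for the combination, and no point is filled for palbociclib.

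The ratio of listed values between partner genes differed between the conditions. The ratio of CYBB to CYBA (both in RPKM) was 1.51 ± 0.0797 in untreated cells, 2.87 ± 0.604 with ATRA, 1.60 ± 0.409 with palbociclib and 3.01 ± 0.582 with the combination (SD, n = 3 each). NCF1 stood at 0.826 ± 0.254 of NCF4 with ATRA, 0.0725 ± 0.0120 with palbociclib and 0.838 ± 0.247 with the combination. RAC2 exceeded RAC1 by a ratio of 1.39 ± 0.180 with ATRA and 1.43 ± 0.206 with the combination, against 1.09 ± 0.0875 in untreated cells and 1.22 ± 0.147 with palbociclib. These ratios restate the levels above and were not tested, and the one with NCF1 shares the uncertainty about the reads of that gene. With ATRA the order of the genes was RAC2 (93 ± 7.21 RPKM), RAC1 (67.3 ± 4.16), CYBB (66 ± 13.9), NCF4 (57.7 ± 3.21), NCF1 (47.3 ± 13.6), VAV1 (25.7 ± 1.15) and CYBA (23 ± 0). RAC2 stood apart from RAC1, whereas the libraries of RAC1, CYBB, NCF4 and NCF1 overlapped from each one to the next.

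Library 1 of the ATRA group was lower than the other two for CYBB (50 against 73 and 75) and NCF1 (32 against 52 and 58), and RAC2 was also lowest there (85 against 99 and 95). In the combination the same 3 genes were lowest in library 1. Library 1 was lowest in both groups for 140 of the 217 genes that were higher with ATRA (64.5%) and for 24.9% of all genes tested. CYBA and VAV1 had values of 23 and 25 in ATRA library 1, equal to at least 1 other library of the group, and NCF4 and RAC1 were highest there. Which libraries were prepared together under a replicate number is not given in the sources used here, and its part in these values was not tested.

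The pseudogenes moved with NCF1. NCF1B was listed at 3 RPKM in every untreated library and at 26, 40 and 43 with ATRA, and NCF1C at 4, 4 and 3 and then at 28, 49 and 53. The log2 differences were 3.52 (95% interval 3.06 to 3.98, limma adjusted p = 1.54e-06) and 3.49 (2.86 to 4.11, adjusted p = 1.38e-05), and both passed the filter only through the libraries with ATRA. NCF1 held 35.4% ± 1.75 of the summed RPKM of the 3 loci in untreated cells, 37.3% ± 0.393 with ATRA, 36.1% ± 2.58 with palbociclib and 37.2% ± 0.569 with the combination (SD, n = 3). The sum itself was 10.3 ± 1.15 RPKM in untreated cells and 127 ± 36.1 with ATRA. How many reads fell in sequence that differs between the loci is not known from this table, so how far the values of NCF1 and of the copies are separate measurements was not tested.

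**Figure D3:**
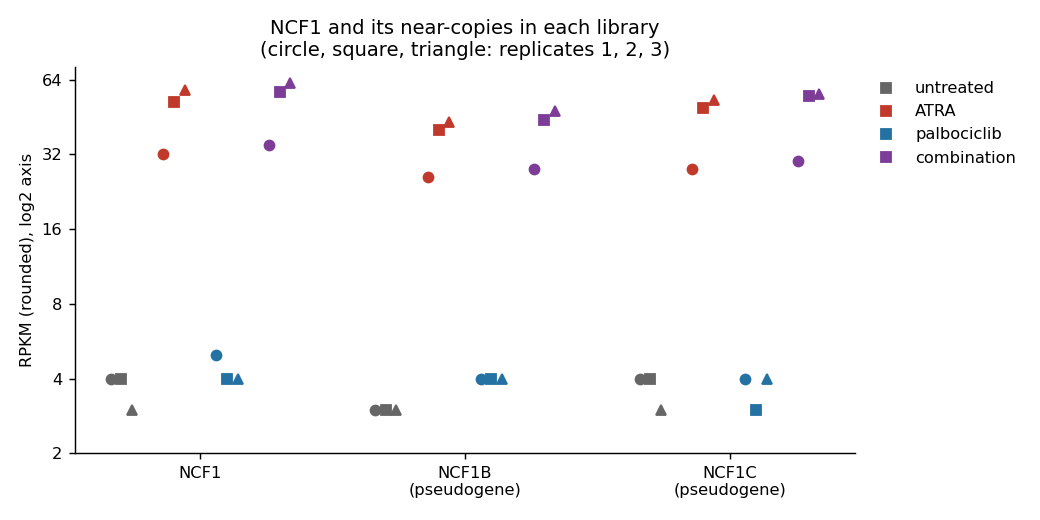
NCF1 and its pseudogenes NCF1B and NCF1C in each library (RPKM rounded to whole numbers, log2 axis), coloured by treatment, with circles, squares and triangles for replicates 1, 2 and 3. The 3 NCF1 loci stand at 3 to 5 RPKM without ATRA and at 26 to 62 with it.

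With palbociclib alone none of the 7 genes passed either threshold (0 of 7 at an adjusted p under 0.001, where 0.499% of all genes were called in either direction, and 0 of 7 at 0.05, against 4.07%). At an unadjusted limma p under 0.05, 569 of the 7820 genes tested were higher and 790 lower, among them 2 of the 7 genes. These were VAV1, at 21, 21 and 23 RPKM against 19, 19 and 18 in untreated cells (log2 difference 0.21, 95% interval 0.08 to 0.34, adjusted p = 0.0748), and NCF4, at 58, 60 and 62 against 50, 50 and 54 (0.23, 0.07 to 0.38, adjusted p = 0.107). In both genes all palbociclib libraries exceeded all untreated ones, as in 5.74% of genes tested. With the replicate block their adjusted p was 0.0228 and 0.0201. CYBB was at 25, 34 and 34 RPKM (0.20, -0.22 to 0.62, adjusted p = 0.659). With the replicate block its interval was 0.01 to 0.39 (limma adjusted p = 0.150). Without replicate 1 in every group, a setting chosen after seeing the data, its adjusted p was 0.00406. In that setting 38 of 7657 genes were called higher and 19 lower at 0.001, CYBB not among them. NCF1 was at 5, 4 and 4 (0.24, -0.32 to 0.80, adjusted p = 0.706). The intervals of CYBB and NCF1 lay below their log2 differences with ATRA of 1.28 and 3.62. CYBA was at 22, 18 and 19 RPKM (0.15, adjusted p = 0.377), RAC2 at 76, 88 and 86 (0.10, adjusted p = 0.691) and RAC1 at 72, 68 and 65 (-0.07, adjusted p = 0.678). The sign for RAC1 turned when libraries were centred on the median gene (0.01).

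With the combination, NCF1, CYBB and VAV1 were again called higher than in untreated cells. NCF1 was at 35, 57 and 62 RPKM, 14-fold over untreated cells as a ratio of means (12.2-fold to 16.4-fold from the rounding), with a log2 difference of 3.74 (95% interval 3.18 to 4.30, limma adjusted p = 3.13e-06). CYBB was at 54, 78 and 79 RPKM (1.38, 0.96 to 1.79, adjusted p = 0.000343). VAV1 was at 27, 27 and 29 (0.56, 0.43 to 0.70, adjusted p = 5.54e-05). The 3 of 7 genes compare with 3.76% of all genes called higher, and of the 3, NCF1 passed the low-value filter only through the libraries with ATRA. At 0.05 the count was 6 of 7 against 12.7% of all genes, with CYBA (23, 24 and 23 RPKM, 0.40, adjusted p = 0.00359), NCF4 (63, 56 and 66, 0.26, adjusted p = 0.0165) and RAC2 (89, 104 and 100, 0.33, adjusted p = 0.0291). RAC1 alone was not past it (74, 65 and 67 RPKM, -0.06, adjusted p = 0.527), and its sign turned when libraries were centred on the median gene (0.01). Without replicate 1 in every group, a setting chosen after seeing the data, RAC1 was lower at 0.05 (-0.15, limma adjusted p = 0.0314). With the replicate block RAC2 was also called (adjusted p = 9.35e-05), for 4 of 7, where that fit called 6.57% of all genes higher. The call of CYBB was lost without any 1 of the untreated libraries (adjusted p 0.00204 to 0.00297) or without combination library 2 or 3 (0.00246 and 0.00263). This comparison shares its untreated libraries with the ATRA comparison, so the likeness of the values is partly built in.

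Whether palbociclib adds to ATRA was asked by setting the combination against ATRA alone. None of the 7 genes differed at an adjusted p under 0.001 (0% of all genes) or 0.05 (0.115% of all genes). None had an unadjusted limma p under 0.05, where 44 of the 7820 genes tested were higher and 243 lower. The log2 differences were all above 0 and small: 0.12 for NCF1 (95% interval -0.44 to 0.68), 0.11 for VAV1 (-0.02 to 0.24), 0.09 for CYBB (-0.33 to 0.51) and for NCF4 (-0.06 to 0.25), 0.07 for RAC2 (-0.15 to 0.29), 0.03 for RAC1 (-0.12 to 0.18) and 0.02 for CYBA (-0.16 to 0.20). These intervals come from the fit without the replicate number. In the fit to the 9 treated libraries with that number as a block, the interval was 0.02 to 0.17 for CYBB (unadjusted p = 0.0246, limma adjusted p = 0.224) and -0.56 to 0.80 for NCF1 (adjusted p = 0.933). The spread in that fit also takes in the palbociclib libraries, where NCF1 was at 5, 4 and 4 RPKM. Over the 3 same-numbered pairs of combination and ATRA alone, its log2 difference was 0.12 ± 0.02 (mean ± SD).

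Same-numbered libraries gave a closer view. Between the combination and ATRA, CYBB was higher by 4, 5 and 4 RPKM in pairs 1, 2 and 3, NCF1 by 3, 5 and 4, RAC2 by 4, 5 and 5, and VAV1 by 2 in each pair. NCF4 was higher by 3, 2 and 7. Higher in all 3 pairs were thus 5 of the 7 genes, against 11.3% of genes tested, whereas RAC1 was lower in pair 2 and CYBA equal in pairs 1 and 3. That share was not matched for level, and at low levels values rounded to whole numbers can tie. In the block fit to the treated libraries alone, VAV1 (log2 difference 0.11, 95% interval 0.08 to 0.14, limma adjusted p = 0.0237) and RAC2 (0.07, 0.04 to 0.10, adjusted p = 0.0461) were higher at an adjusted p under 0.05, where 0.587% of genes were. With the block over all 12 libraries neither was past 0.05 (adjusted p = 0.631 for VAV1 and 0.655 for RAC2), and none of the 7 genes was past 0.001 in either fit. With values rounded to whole numbers, a difference of 2 RPKM in each pair of VAV1 has an uncertainty of up to 1 RPKM per pair.

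**Figure D4:**
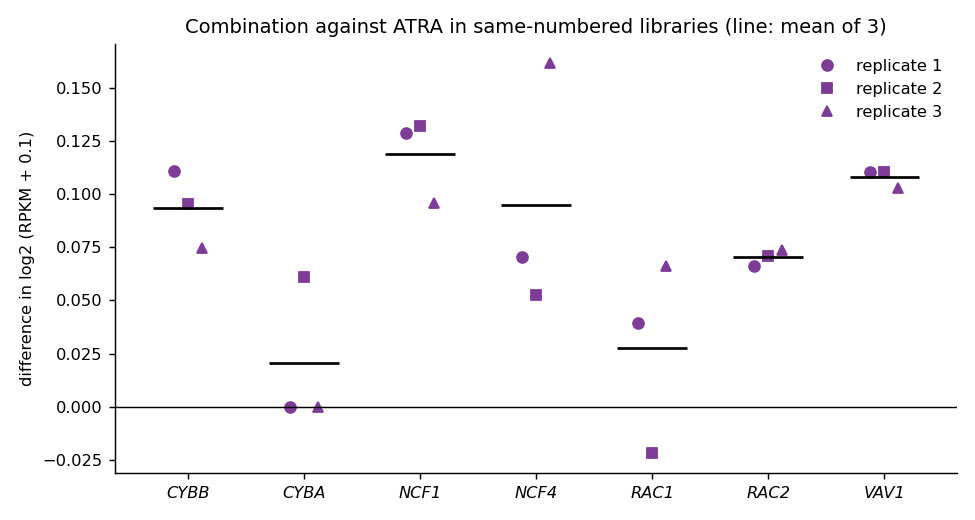
Combination minus ATRA for each oxidase gene in same-numbered libraries, as a difference in log2 (RPKM + 0.1); symbols give the replicate number and the line the mean of 3 pairs. CYBB, NCF1, NCF4, RAC2 and VAV1 are above 0 in all 3 pairs, CYBA in 1 and RAC1 in 2.

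Against palbociclib alone, the combination was higher in NCF1 (log2 difference 3.50, 95% interval 2.94 to 4.06, limma adjusted p = 6.73e-06), the single gene of 7 called, against 2.11% of all genes called higher. That gene passed the low-value filter only through the libraries with ATRA, so it had to differ between groups in order to be tested. CYBB (1.17, 0.75 to 1.59, adjusted p = 0.00195) and VAV1 (0.35, 0.22 to 0.48, adjusted p = 0.00255) were past 0.05 and made 3 of 7, against 5.86% of genes. With the replicate block over the 9 treated libraries, CYBB, NCF1, RAC2 and VAV1 were called (adjusted p 6.37e-05, 0.000931, 0.000252 and 0.000112), 4 of 7 against 3.25% of genes. Without ATRA library 1 the count in the fit without the block was 2, since CYBB passed (adjusted p = 0.000947). RAC2 was higher by 13, 16 and 14 RPKM and VAV1 by 6 in each same-numbered pair.

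To ask whether the 2 agents departed from additivity on the log2 scale, the difference made by palbociclib in ATRA-treated cells was compared with the one it made in cells without ATRA. This contrast was not past the threshold for any of the 7 genes (0% of all genes), and every adjusted p was 1. None of the 7 had an unadjusted limma p under 0.05, where 154 of the 7820 genes tested were above 0 and 82 below. The estimates were -0.13 for CYBA (95% interval -0.38 to 0.12) and for NCF4 (-0.35 to 0.09), -0.12 for NCF1 (-0.91 to 0.67), -0.11 for CYBB (-0.70 to 0.48) and for VAV1 (-0.29 to 0.08), -0.03 for RAC2 (-0.34 to 0.28) and 0.10 for RAC1 (-0.11 to 0.31). In this fit, without the replicate number, the intervals of NCF1 and CYBB each span more than 1 log2 unit. A departure of moderate size in those genes could not have been seen in it. With the replicate block over all 12 libraries the interval was -0.38 to 0.16 for CYBB (limma adjusted p = 0.910). For NCF1 it was still wide, -0.94 to 0.70 (adjusted p = 0.962).

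Beyond these genes, 77 further genes of the oxidase pathway were read from lists, of which 53 were tested. With ATRA, 5 of the 53 were called higher and 0 lower at an adjusted p under 0.001, and 12 were higher and 6 lower at 0.05. The shares over all genes tested were 2.77% higher at 0.001, and 8.71% higher and 11.6% lower at 0.05. Of the 5 called genes, IRF1 and CSF2RA passed the low-value filter only through the libraries with ATRA. The median log2 difference was 0.02 over the 53 genes and -0.01 over all genes tested. With palbociclib 0 were called and 3 were higher at 0.05 (PIK3R5, SPI1 and CEBPE), against 0.908% of all genes. With the combination 6 were called higher, against 3.76% of all genes, and at 0.05 there were 10 higher and 7 lower, against 12.7% and 17.7%. Those 6 again include IRF1 and CSF2RA, with the same limit from the filter. Against palbociclib the combination was higher in 4 (PIK3R5, LCP2, IRF1 and CEBPE), against 2.11% of all genes, and that limit holds for IRF1 here too. None was called between the combination and ATRA or for a departure from additivity, at either threshold.

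Among the transcription factors of oxidase genes, all 7 were tested and 2 were called higher with ATRA. CEBPE, a factor of late granulocyte maturation, was at 34, 32 and 37 RPKM in untreated cells and at 116, 116 and 118 with ATRA (log2 difference 1.76, limma adjusted p = 1.81e-07), and it was at 48, 39 and 47 with palbociclib and 131, 131 and 135 with the combination. IRF1, an interferon-regulated factor, was at 2, 2 and 1 RPKM and at 7, 7 and 6 with ATRA (2.00, adjusted p = 9.45e-05), levels where rounding weighs heavily and which passed the filter only with ATRA. SPI1, which encodes PU.1, was at 80, 86 and 85 RPKM and at 108, 102 and 105 with ATRA (0.33, adjusted p = 0.00119), and it was called with the combination (112, 111 and 110, 0.41, adjusted p = 0.000185). That call was lost without untreated library 1 (adjusted p = 0.00112) and without combination library 2 or 3 (0.00123 and 0.00101), and SPI1 was called with ATRA under the replicate block (0.000846). IRF8 and ELF1 were lower with ATRA at 0.05 (-0.40, adjusted p = 0.00976, and -0.46, adjusted p = 0.0153).

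Of 18 kinases and lipid enzymes of activation, 16 were tested and 2 were called higher with ATRA. PIK3R5, a regulatory subunit of phosphoinositide 3-kinase gamma, rose from 16, 15 and 15 RPKM to 30 in each ATRA library (0.96, limma adjusted p = 8.85e-07). LCP2, an adaptor that binds VAV proteins, rose from 8, 9 and 9 to 18, 22 and 22 (1.24, adjusted p = 2.47e-05). PIK3CG, the catalytic partner of PIK3R5, was at 11, 13 and 12 RPKM and at 27, 49 and 46 with ATRA, again lowest in library 1 (1.71, adjusted p = 0.00201, and 3.38e-05 with the replicate block). PAK1 was higher (0.26, adjusted p = 0.0243), and MAPK14 (-0.39, adjusted p = 0.00432) and AKT1 (-0.22, adjusted p = 0.0488) were lower, at 0.05 only.

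Of 10 receptors 4 were tested, and CSF2RA, the alpha chain of the GM-CSF receptor, was called higher with ATRA, at 3 RPKM in each untreated and 5 in each ATRA library (0.72, limma adjusted p = 0.000932), a step of 2 rounded units with no spread between libraries. CSF2RA passed the low-value filter only through the libraries with ATRA, so that it had to differ in order to be tested. Without any 1 of 11 of the 12 libraries that call was lost, palbociclib library 1 being the exception (adjusted p 0.00115 to 0.00574). The formyl peptide receptor genes FPR1 and FPR2 and the complement receptor gene C5AR1 were listed at 0 in every library, and ITGAM, which encodes CD11b, was at 0 in untreated cells and at 1, 1 and 2 with ATRA. Of 16 genes of NADPH supply, charge balance and removal of oxidants, 14 were tested with 0 called and 4 higher at 0.05: PGD, IDH1, GPX1 and PRDX5 (0.42, 0.61, 0.30 and 0.34, adjusted p 0.00811, 0.0133, 0.0316 and 0.00752). Among the partners of the enzyme, C17orf62 (CYBC1, a chaperone of the membrane core) and RAP1A were tested and were not past 0.05 with ATRA (0.09 and -0.19, adjusted p = 0.550 and 0.0866). Of 8 other oxidase family genes none was tested: NOX3, NOX4, NOX5, DUOX1, DUOX2, NOXA1 and NOXO1 were listed at 0 throughout, and NOX1 was at 1 in a single library.

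**Figure D5:**
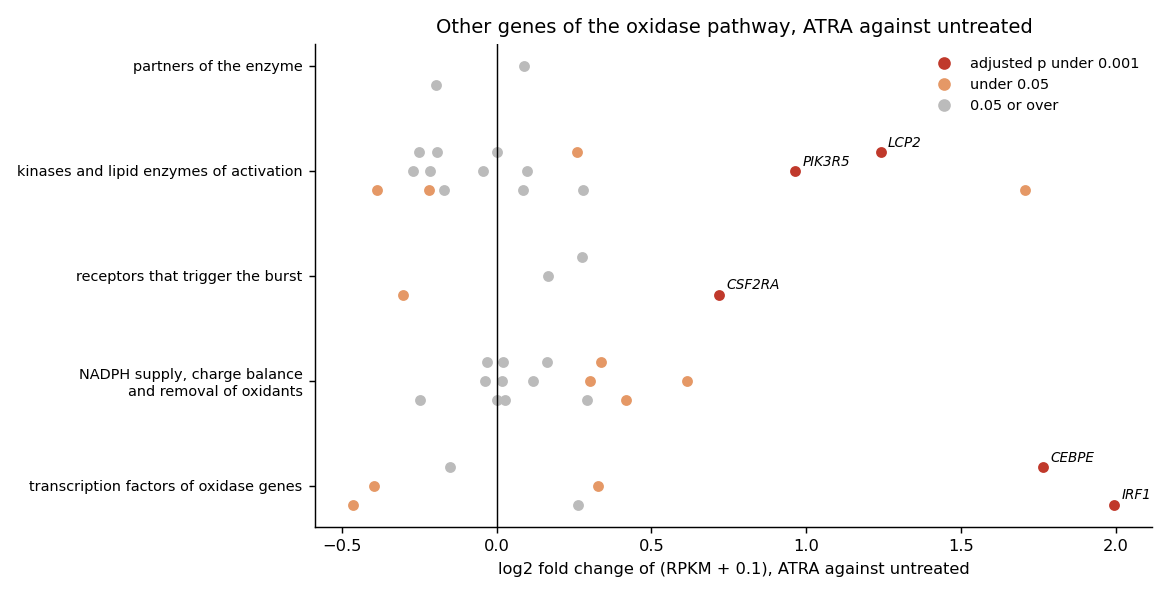
Log2 fold change of (RPKM + 0.1) with ATRA against untreated cells for tested genes of 5 of the oxidase pathway lists (horizontal axis), 1 point per gene, by list; dark red points have an adjusted p under 0.001, orange under 0.05. PIK3R5, LCP2, CSF2RA, IRF1 and CEBPE are the called genes, and the orange point furthest right is PIK3CG at 1.71.

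For each of the 7 genes the tested genes with the most similar pattern were found by Pearson's r of log2 values over the 12 libraries, as a description. The libraries fall into those with and without ATRA and share replicate numbers, which a high r reflects. CYBB was most like TNFRSF1B (r = 0.996), EHD1 (0.994) and CCR2 (0.994). NCF1 was most like its copies NCF1C (0.997) and NCF1B (0.997), and then MAPKAPK2 (0.997). VAV1 was most like WARS (0.984), PTPN6 (0.974) and CACNA2D4 (0.973), and CYBA like RNF5 (0.983), PSMD4 (0.974) and PYCARD (0.972). RAC2 was most like PEX6 (0.982), STAR (0.971) and AP1B1 (0.970). The values were lower for RAC1 (PRDX6 at 0.952, ACOT7 at 0.940 and UBE2E3 at 0.918) and NCF4 (RPL4P3 at 0.948 and COQ9 at 0.937), the pair of genes with the smallest differences between ATRA and untreated cells.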

How the data were processed

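Poly(A) libraries of HL-60 cells were sequenced by the authors, mapped to hg38 with HISAT2 and counted over genes by htseq-count at default settings, which leave out reads that align equally well to several places. The deposited score values are RPKM that the authors rounded to whole numbers, 1 column for each of 12 libraries and 58233 genes. Read counts and gene lengths were not used here, so counting error could not be given, and the study's count-based voom test could not be applied.

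In R 4.3.3, limma 3.58.1 was fitted to log2(RPKM + 0.1) with 1 mean per group over 12 libraries, eBayes with a variance trend and Benjamini-Hochberg adjustment over the 7820 genes with at least 5 RPKM in at least 3 libraries. Calls were made at adjusted p-values under 0.001. The code was tested on simulated data. Python 3.11.15 was used for values, sequences and figures. Deviations from group means of same-numbered libraries correlated at 0.438 to 0.908 between treated groups (9 of 9 over 0.1) and at 0.0453 to 0.367 between untreated and treated groups (6 of 9), so the numbers were taken to pair the treated libraries. No 2 libraries were duplicates: replicates shared 17.9% to 36.5% of values. Named were the 7 genes, NCF1B, NCF1C, every list gene called, and for each of the 7 the 3 most correlated genes; some items under this rule are not reported here. List genes named at 0.05, untested or at 0 were chosen after their values were seen. The 7 genes and the lists were chosen with earlier results of these data known.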

Additional observations from a re-analysis of the deposited data

How the results depend on the processing

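Of the 7 oxidase genes, 3 were called with ATRA, against 1 after rescaling libraries to the same sum, 0 with only the 6 compared libraries fitted, 1 to 3 without any single library and 0 to 2 without replicate 1, 2 or 3 in every group. With the combination against untreated cells 3 were called, against 6 at an adjusted p under 0.05, 0 with only the compared libraries fitted, 2 to 3 without any single library and 0 to 2 without 1 replicate number. Against palbociclib the combination was called higher in 1, against 2 after median centring, 2 with the replicate block, 4 with that block over treated libraries only, 3 at 0.05, 0 with only the compared libraries fitted, 1 to 2 without any single library and 0 to 2 without 1 replicate number. The cause was not tested, other than that fits of fewer libraries have fewer residual degrees of freedom. For palbociclib, the combination against ATRA and additivity 0 were called in every alternative run. The block changed no call of the 7 genes at 0.001 other than those given in the report (RAC2, and CYBB, RAC2 and VAV1 against palbociclib). Over all genes, 217 were higher and 152 lower with ATRA, 252 and 92 after median centring, and 294 and 335 with the combination, 346 and 172 after median centring and 224 and 425 after sum scaling. Leaving out a replicate number in every group was chosen after seeing the data.

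The pathway counts were 5 with ATRA and 6 with the combination, against 10 and 10 with the replicate block, 18 and 17 at 0.05, 3 and 3 with only the compared libraries fitted, and 0 to 6 and 1 to 8 without libraries. These counts take higher and lower genes together. Over all 7820 genes tested, the block called 376 higher and 346 lower with ATRA, and 514 and 690 with the combination. At 0.05 the numbers over all genes were 681 and 909, and 996 and 1381. With only the compared libraries fitted they were 51 and 29 of 7509, and 51 and 27 of 7545. Against palbociclib 4 became 8 with the block, 11 with the block over treated libraries, 15 at 0.05, 1 with only the compared libraries fitted and 0 to 7 without libraries, and for palbociclib 0 became 3 at 0.05 and 0 to 1 without libraries. Over all genes, the combination against palbociclib gave 280 higher and 201 lower with the block, and 458 and 519 at 0.05. With the block over treated libraries it gave 249 and 159 of 7666. Palbociclib alone gave 71 and 247 at 0.05.

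Signs turned only for differences that were not called. RAC1 was at 0.0071 with palbociclib and 0.013 with the combination after median centring, and at -0.0010 for the combination against palbociclib after sum scaling, where RAC2 was at 0.0098 for additivity. Without replicate 1 in every group, the combination against palbociclib was at -0.0047 for NCF4 and -0.011 for RAC1 (-0.013 without replicate 3), and additivity at 0.0046 for RAC2. Without a library or replicate number, the combination against ATRA ran from -0.094 to 0.27 for CYBB, -0.14 to 0.37 for NCF1 and -0.027 to 0.077 for RAC1. The combination against palbociclib ran from -0.049 to 0.044 for RAC1 and -0.014 to 0.10 for NCF4. The departure from additivity ran from -0.23 to 0.031 for CYBA, -0.30 to 0.070 for CYBB, -0.38 to 0.13 for NCF1 and -0.093 to 0.067 for RAC2. With 3 libraries a group and values rounded to whole RPKM, small differences and genes of low level are the least certain.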
